A study of Drosophila melanogaster with 4 samples.

Results

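Some of the best known antibacterial peptide families of the fly, the diptericins, attacins and defensins, were followed through Diptericin B (DptB), Attacin D (AttD) and Defensin (Def). The genes were chosen as members of these families with a probe set of their own on the array, and they are 3 of 11981 genes so represented. Earlier results of these data were known when they were chosen. Their probe sets were 1638235_at for DptB, 1631475_at for AttD and 1634271_at for Def. RNA of whole 3rd instar larvae of Drosophila melanogaster, grown at 25 °C, was hybridized to 4 one-colour Affymetrix arrays. The control genotype was C564-Gal4; UAS-GFP, in which the driver switches on green fluorescent protein. The experimental genotype was C564-Gal4; UAS-Gyc76C, in which the same driver switches on the receptor guanylate cyclase Gyc76C, in the fat body according to the labels. Both genotypes thus carry the driver, which is known to be active in the larval fat body and in blood cells among other tissues. The labels call the 2 arrays of a genotype biological replicas and do not say how many larvae went into each.

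Antimicrobial peptides are small proteins that the larval fat body secretes into the blood when bacteria or fungi are sensed. Peptidoglycan of Gram-negative bacteria is bound by receptors of the PGRP family, which signal through the adaptor Imd, the caspase Dredd and an IkappaB kinase to the NF-kappaB factor Relish. Diptericin genes are the classical readout of that pathway, attacins respond to it as well, and Defensin responds to both the Imd and the Toll pathway. The diptericins and attacins are glycine-rich peptides that act mainly on Gram-negative bacteria, whereas Defensin is a compact, cysteine-rich peptide that acts mainly on Gram-positive bacteria. AttD differs from the other attacins in lacking a signal peptide for secretion.

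DptB was higher in Gyc76C larvae by more than an order of magnitude, AttD was higher by a smaller factor, and Def did not pass the test. Genotypes were compared on the log2 scale with limma, and a gene is said to have risen or fallen where the p-value adjusted over all 11261 tested probe sets was under 0.05. By this rule 2 of the 3 genes rose and 0 fell, where 11.3% of all tested probe sets were called higher and 13.3% lower. The median log2 fold change was 2.63 over the 3 genes and -0.16 over all tested probe sets. Since the 3 genes were chosen with earlier results of these data known, these figures only describe them. All 3 probe sets passed the filter on dim probe sets, a mean signal of at least 46.3 over the 4 arrays, and each passed it on the GFP arrays alone as well.

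DptB encodes a secreted glycine-rich peptide. Its signal was 47.6 and 104 on the GFP arrays (replicates 1 and 2) and 1565 and 3969 on the Gyc76C arrays. Both Gyc76C signals lay far above both GFP signals, and the smallest ratio between an array of each genotype was 15.1 and the largest 83.5. The mean was 75.8 ± 39.9 in GFP larvae and 2767 ± 1699 in Gyc76C larvae (SD, n = 2 each). The ratio of geometric means was 35.4 (95% interval 15.4 to 81.8), with a log2 fold change of 5.15, an SE of 0.50 and a limma adjusted p of 0.0014. This change ranked 14th from the top among the 9259 genes with a tested probe set of their own.

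AttD encodes the attacin without a signal peptide. It had 53.1 and 98.3 on the GFP arrays and 396 and 504 on the Gyc76C arrays. The genotypes did not overlap, with ratios between arrays from 4.03 to 9.5. Both Gyc76C arrays were above both GFP arrays in 26.9% of all tested probe sets and below both in 41.4%. Means were 75.7 ± 32 with the GFP and 450.0 ± 76.6 with the Gyc76C transgene (n = 2 each). AttD was 6.19-fold higher (95% interval 3.56 to 10.8; log2 fold change 2.63, SE 0.33, limma adjusted p = 0.00332). Its change ranked 77th of the 9259 genes.

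Def was dim in every sample. Its signal was 29.3 and 85.6 on the GFP arrays and 70.7 and 126 on the Gyc76C arrays. The genotypes overlapped, since the higher GFP array exceeded the lower Gyc76C array, and the GFP replicate 1 signal was under the filter level of 46.3. GFP larvae averaged 57.4 ± 39.8 and Gyc76C larvae 98.2 ± 38.9 (n = 2 each). The log2 fold change was 0.91 with an SE of 0.61 and a limma adjusted p of 0.31, and it ranked 732nd. The 95% interval of its fold ran from 0.682 to 5.2, so that neither a small decrease nor a 5.2-fold increase could be told from no change with these arrays. The value moved with each array left out. Leaving out GFP replicate 1 gave a log2 fold change of 0.14 and leaving out GFP replicate 2 gave 1.69 (limma adjusted p = 0.868 and 0.102), and leaving out Gyc76C replicate 1 or 2 gave 1.33 or 0.50 (0.252 and 0.672).

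**Figure D1:**
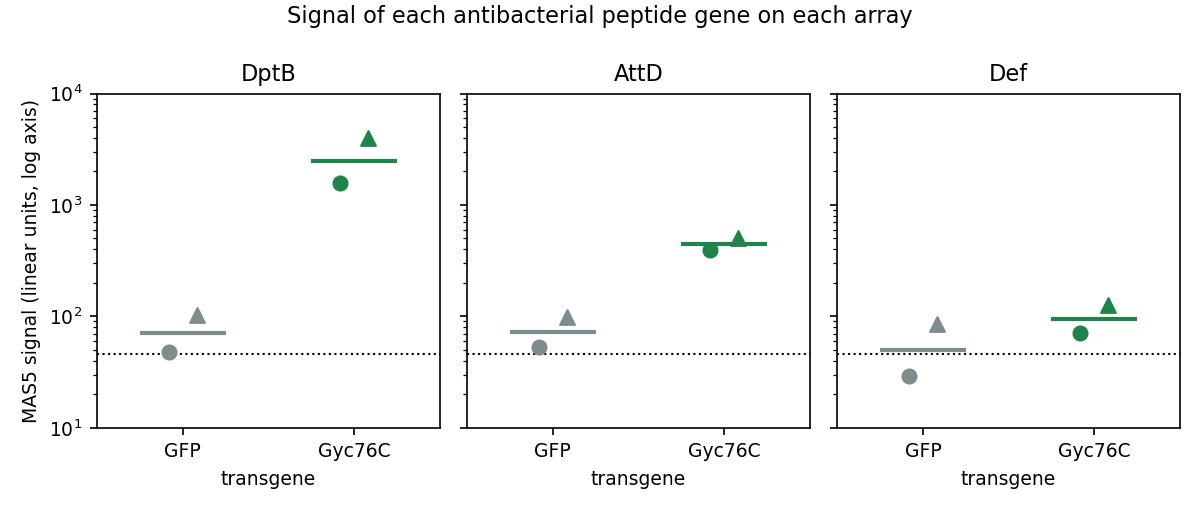
MAS5 signal (linear units on a log axis) of DptB, AttD and Def on each array, grey for GFP and green for Gyc76C larvae, with circles for replicate 1 and triangles for replicate 2. Horizontal bars are geometric means of 2 arrays and the dotted line is the filter level of 46.3. DptB and AttD do not overlap between genotypes, while the Def points at 85.6 (GFP) and 70.7 (Gyc76C) cross.

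Placed on the whole array, the same probe sets moved through the range of signals. On the GFP arrays DptB was brighter than 38.9% and 51.8% of the 18769 probe sets without controls, and on the Gyc76C arrays it was brighter than 90.2% and 95.4%. AttD went from 40.9% and 51% to 74.8% and 77.9%. Def stood at 29.8% and 48.8% on the GFP arrays and at 49% and 56.4% on the Gyc76C arrays. In the control larvae all 3 were therefore in the lower or middle range of the array, where MAS5 also gives a signal to probe sets that detect nothing and where signals scatter widely. Detection calls were not used here, so the control level of each gene may be a background level and the folds of DptB and AttD depend on it.

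**Figure D2:**
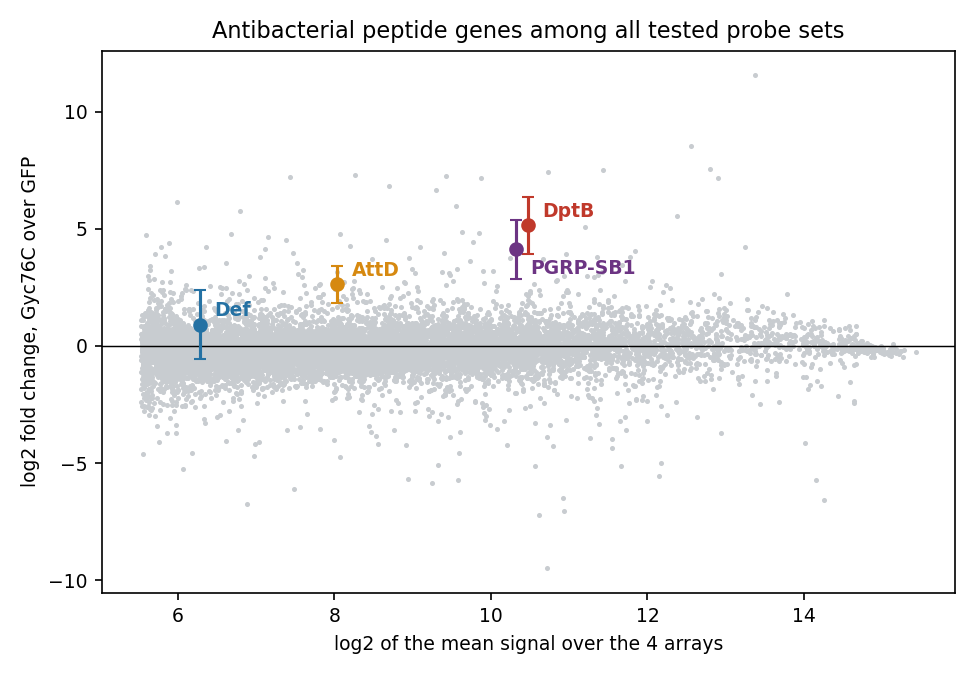
Log2 fold change (Gyc76C over GFP) against the log2 mean signal over the 4 arrays for the 11261 tested probe sets (grey). Coloured points with 95% limma intervals mark DptB at 5.15, AttD at 2.63 and Def at 0.91, with the recognition protein gene PGRP-SB1 at 4.12 for comparison.

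The sizes of the 3 changes were set against each other within arrays, which removes any scaling shared by an array. The DptB change exceeded the AttD change by 2.52 on the log2 scale as measured. Where a control signal is background its fold is understated, so that this difference describes the measured changes of these probe sets and not those of the transcripts. Over the pairs of 1 array from each genotype, this difference between the genes' log2 ratios ran from 1.90 to 3.13 and never changed sign. DptB exceeded Def by 4.23 (3.77 to 4.70), and AttD exceeded Def by 1.72 (1.15 to 2.29). In each of these 3 comparisons, which share genes, the Gyc76C arrays did not overlap with the GFP arrays. Single probe sets often separate too, 26.9% of those tested with both Gyc76C arrays above both GFP arrays and 41.4% below. The share for other pairs of genes was not computed. The two-sided exact permutation test over arrays gave p = 0.333 each time, also 0.333 after Benjamini-Hochberg adjustment over the 3, and 0.333 is the smallest p that 2 arrays against 2 can give. The differences are thus larger than the spread between replicates, but the design cannot bring them past a threshold of 0.05.

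The arrays of a genotype differed from each other for all 3 genes, and each time the replicate 2 array had the higher signal. DptB was 2.19-fold higher on the replicate 2 than on the replicate 1 array of GFP larvae and 2.54-fold higher on that of Gyc76C larvae. The corresponding ratios were 1.85 and 1.27 for AttD and 2.93 and 1.78 for Def. Of all tested probe sets, 26.5% had the higher signal on replicate 2 in both genotypes, so the direction by itself was common for a single probe set. How often 3 related genes share it was not tested. The sizes of the gaps were less common. The DptB gap was wider than that of 95.8% of tested probe sets between the GFP arrays and of 96.4% between the Gyc76C arrays, the Def gap wider than 98.2% and 90.8%, and the AttD gap wider than 92.8% and 71%. The SE of the DptB change, 0.50, was accordingly above the median SE of 0.21 over all tested probe sets.

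**Figure D3:**
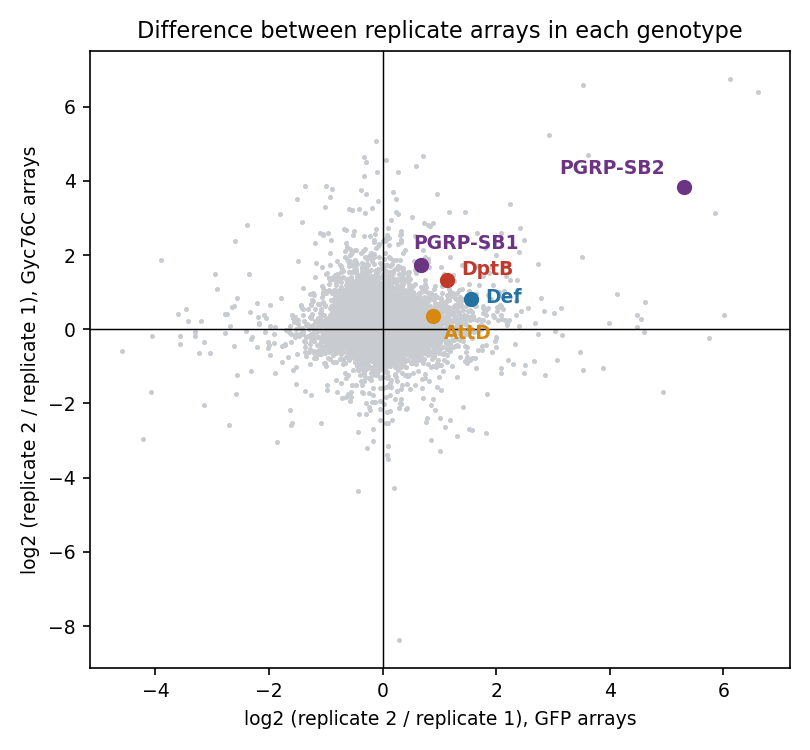
Log2 ratio of replicate 2 to replicate 1 in GFP larvae (horizontal) and in Gyc76C larvae (vertical) for all tested probe sets (grey). DptB (1.13 and 1.34), AttD (0.89 and 0.35) and Def (1.55 and 0.83) lie to the upper right of the origin, together with PGRP-SB1 (0.68 and 1.73) and PGRP-SB2, which is far out.

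The calls of DptB and AttD held under each of the 13 other settings tried. The log2 fold change of DptB ran from 4.48 to 5.82 over the settings with limma adjusted p from 8.19e-07 to 0.0295, and that of AttD from 2.18 to 3.07 with adjusted p from 2.44e-05 to 0.0347. The DptB fold was 56.4 without Gyc76C replicate 1 and 22.3 without Gyc76C replicate 2. The highest adjusted p of each came from the fit without a mean trend in the variance. Def was not called under any of the 12 other settings in which it was tested, with adjusted p from 0.102 to 0.868. Under the stricter filter it was too dim to be tested.

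**Figure D4:**
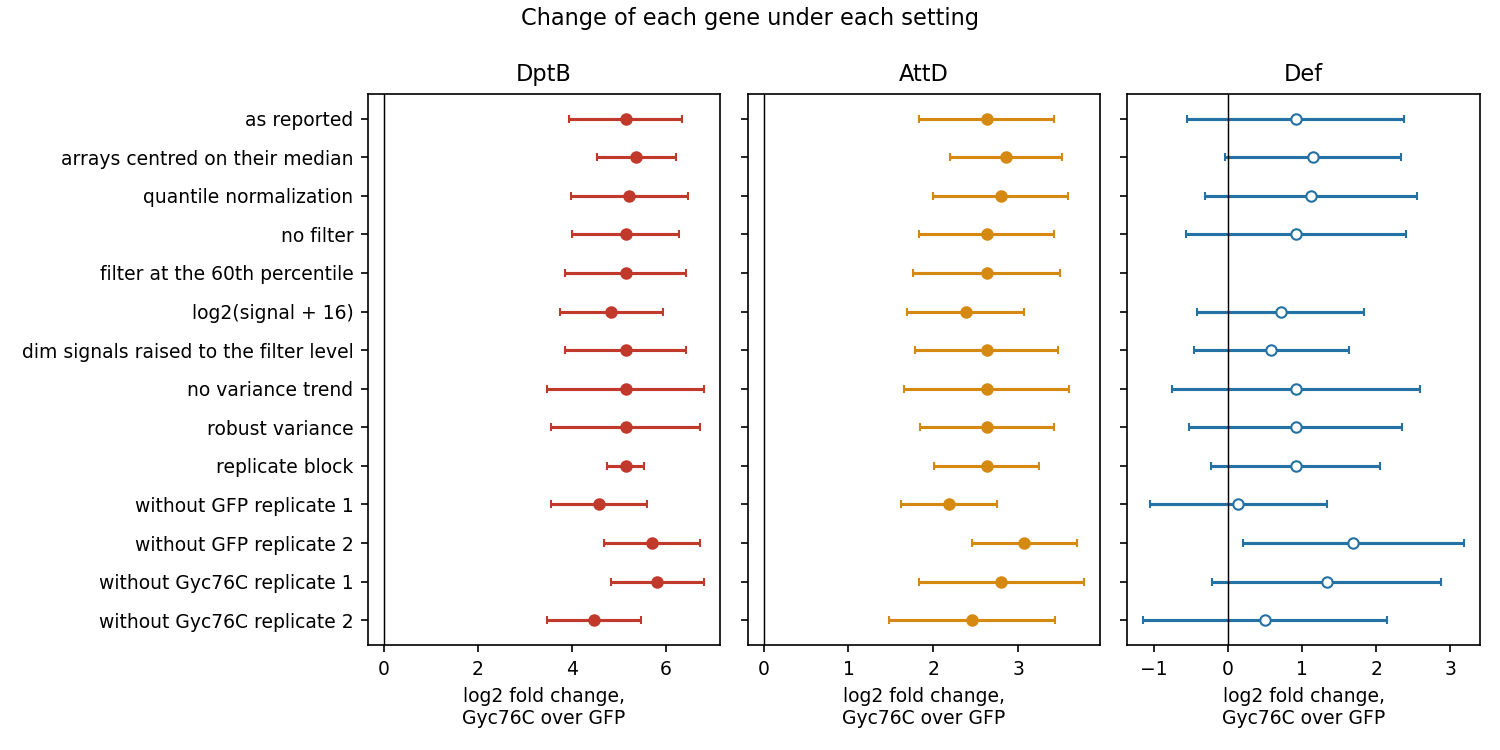
Log2 fold change (Gyc76C over GFP) with 95% limma intervals for DptB, AttD and Def under the reported setting and each alternative. Filled points passed an adjusted p of 0.05, which all DptB and AttD points did, and open points did not, which was the case for every Def point.

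Other antibacterial peptide genes were poorly represented, and few statements can be made about them. Of 11 listed, 3 had a probe set of their own, and of these only that of the cecropin gene CecB, which encodes a helical peptide that disrupts bacterial membranes, was bright enough to be tested. CecB had 79.2 and 81 on the GFP arrays and 57.7 and 128 on the Gyc76C arrays, which overlapped (log2 fold change 0.10, SE 0.46, limma adjusted p = 0.889). The immune-induced gene edin had 47.5 and 13.9 against 16.3 and 84.3. Andropin (Anp), known from the male reproductive tract, had 25.8 and 25.5 against 31.2 and 31.3, under the filter level on every array. Neither edin nor Anp passed the filter, and both are named here for completeness. Without a filter all 3 were tested and 0 were called. DptA, AttA, AttB, AttC, CecA1, CecA2, CecC and Dro were not analysed here.

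Receptors and regulators that act on the Imd pathway moved in both directions. Of 8 tested peptidoglycan recognition protein genes and pirk together, 1 rose, 1 fell and 6 were not called, with a median log2 fold change of 0.19. These 2 calls of 8 are a share near the 24.6% called among all tested probe sets. PGRP-SB1, a secreted amidase that is itself induced by the Imd pathway, had 93.5 and 150 on the GFP arrays and 1129 and 3737 on the Gyc76C arrays. It rose 17.3-fold (log2 fold change 4.12, SE 0.53, limma adjusted p = 0.00354). It too had its highest signal on the Gyc76C replicate 2 array. The call held with each array left out, at 31.5-fold without Gyc76C replicate 1 and 9.53-fold without Gyc76C replicate 2. PGRP-SC2, an amidase that degrades peptidoglycan and dampens the pathway, went the other way, from 13772 and 9163 to 3157 and 3131, and fell by 1.84 on the log2 scale (SE 0.20, limma adjusted p = 0.00205). Without GFP replicate 1 there were 5 calls in this list, with PGRP-LA, PGRP-LB and pirk added.

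Further regulators, picked for naming with their values known, were measured as well. The receptor PGRP-LE, which senses peptidoglycan fragments inside cells, had 705 and 654 on the GFP arrays and 924 and 776 on the Gyc76C arrays (log2 fold change 0.32, limma adjusted p = 0.174). The amidase gene PGRP-LB and the inhibitor gene pirk, both known as targets and negative regulators of the Imd pathway, had log2 fold changes of 0.40 and 0.21 (adjusted p = 0.197 and 0.472). PGRP-LA, another gene of the family, went the other way, from 389 and 540 to 296 and 324 (log2 fold change -0.57, adjusted p = 0.091). The arrays of PGRP-LE, PGRP-LB and PGRP-LA did not overlap between genotypes, while those of pirk did. Such separation was common, with both Gyc76C arrays above both GFP arrays in 26.9% of all tested probe sets and below in 41.4%.

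Of 17 tested genes for intracellular components 0 rose, 2 fell and 15 were not called, where 13.3% of all tested probe sets were called lower, and the median log2 fold change was -0.25 beside -0.16 over all tested probe sets. With arrays centred, the medians were -0.02 for the list and 0.08 for all tested probe sets, and ben was the only call. The ubiquitin-conjugating enzyme gene ben, whose product builds the chains that link Imd to its kinases, had 4016 and 4917 on the GFP arrays and 2134 and 2065 on the Gyc76C arrays (log2 fold change -1.08, SE 0.15, limma adjusted p = 0.00407). The gene akirin, which encodes a nuclear partner of Relish, had 3476 and 3346 against 2574 and 2373 (log2 fold change -0.46, SE 0.13, adjusted p = 0.0395). Larger decreases that were not called were those of trbd (-0.82), scny (-0.65) and dnr1 (-0.50), with limma adjusted p of 0.109, 0.0954 and 0.0936. The highest log2 fold change in the list was 0.29. These genes too were named with their values known. The akirin call ended with arrays centred on their median (-0.23, adjusted p = 0.403), without a filter (0.0506), without the variance trend (0.118) and without either Gyc76C array (0.172 without replicate 1 and 0.235 without replicate 2).

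The transcription factor at the end of the pathway and its activating enzymes were present in both genotypes. Rel, which encodes Relish, had 1140 and 1364 on the GFP arrays and 1251 and 1561 on the Gyc76C arrays, which overlapped (log2 fold change 0.16, SE 0.17, limma adjusted p = 0.503). Dredd, the caspase gene, had a log2 fold change of 0.29 and imd, the adaptor gene, -0.22 (adjusted p = 0.21 and 0.495). The IkappaB kinase genes IKKbeta and key had -0.02 and -0.18. These 5 were picked for naming with their values known, and transcript levels do not report the cleavage or phosphorylation by which the pathway is switched on.

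**Figure D5:**
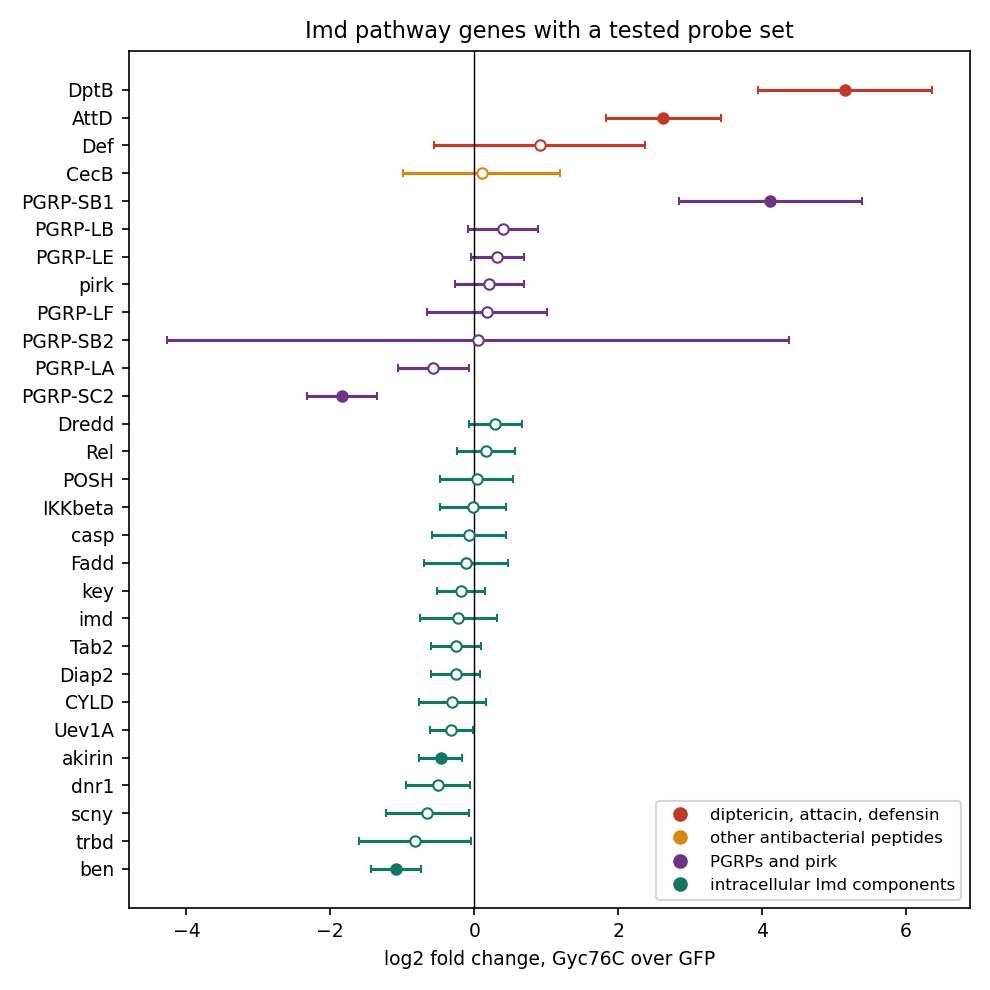
Log2 fold change (Gyc76C over GFP) with 95% limma intervals for the tested genes of the peptide, recognition and intracellular groups, filled where the adjusted p was under 0.05. DptB, PGRP-SB1 and AttD stand to the right and PGRP-SC2 and ben to the left. The other genes lie nearer to 0, with Def at 0.91 and trbd at -0.82 the furthest out on each side. PGRP-SB2, at 0.05, has an interval from -4.27 to 4.37.

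Genes with the most similar profile were found by the Euclidean distance between log2 signals of the 4 arrays, each taken relative to the mean of the GFP arrays, over 9258 other genes. With 4 arrays of 2 genotypes this measure mainly matches the size of the change. Nearest to DptB was TwdlN, a cuticle protein gene of the Tweedle family, at a distance of 0.85, with 31.4 and 87.7 on the GFP arrays and 1333 and 1713 on the Gyc76C arrays. CG8087 and CG9928 followed at 1.00 and 1.04. AttD had closer neighbours, CG43134 at 0.12, CG15554 at 0.29 and CG40198 at 0.36. CG43134 had 39.3 and 75.8 on the GFP arrays and 278 and 393 on the Gyc76C arrays, a pattern nearly parallel to that of AttD on all 4. Nearest to Def were CG30414 at 0.30, Gclm, which encodes the modifier subunit of glutamate-cysteine ligase, at 0.33, and snsl at 0.34, and 0 of these 3 were called, although Gclm was with centred arrays (log2 fold change 1.18, limma adjusted p = 0.0468).

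Of the genes directly adjacent to a member on the chromosome, only CG43109, magu and PIG-N were tested, and none of them was called. Among all tested probe sets 24.6% were called, so the calls and missing calls of so few neighbours do not set them apart. Gene order was taken from the RefSeq table of assembly Release 6, over the 3 protein-coding genes on each side. On one side of DptB the next gene is its paralogue DptA. On the other side CG43109 had 42.9 and 26.8 on the GFP arrays and 77.3 and 68.2 on the Gyc76C arrays, a log2 fold change of 1.10 that did not pass (limma adjusted p = 0.173). Around AttD the adjacent genes CG14323 and CG14325 were under the filter level on every array, and CG14322, the only one of the 6 that was tested, had a log2 fold change of 0.39 (adjusted p = 0.311). Next to Def, magu had -0.61 and PIG-N -0.45 (adjusted p = 0.0677 and 0.283). Of the other tested neighbours, Vha100-3 near DptB fell by 1.41 on the log2 scale and sel near Def rose by 0.53 (adjusted p = 0.0341 and 0.0428). All neighbours named here were picked with their values known.

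Facts of the whole array set bear on these values. The brightest probe set annotated to Gyc76C, together with CG42637, had 1047 and 928 on the GFP arrays and 16050 and 20993 on the Gyc76C arrays, the direction the labels give. The 2 other probe sets with this annotation were dim and lower in Gyc76C larvae, 1 with 91.9 and 64.9 against 9.42 and 30.6 (log2 fold change -2.19, limma adjusted p = 0.0951) and 1, untested, with 17 and 14.6 against 2.43 and 4.69; where each lies relative to the transgene was not analysed here. In all, 24.6% of the tested probe sets were called, 1271 higher and 1500 lower, and 45.9% of the calls were higher, against 67.2% when every array was centred on its own median and 54.8% when arrays were quantile-normalized. The median log2 signal of all probe sets without controls was lower in Gyc76C larvae (shift -0.23), and relative to it the log2 fold changes were 5.38 for DptB, 2.86 for AttD and 1.14 for Def (limma adjusted p = 8.19e-07, 2.44e-05 and 0.151). Arrays of the same genotype correlated at r = 0.966 and 0.968 and arrays of different genotype at 0.88 to 0.91. The ratio of 3′ to 5′ signal of the eIF-4a control, a sign of RNA quality, was 4.04 and 4.06 on the GFP arrays and 3.12 and 3.61 on the Gyc76C arrays. Other controls had lower ratios, 1.18 and 1.20 against 1.08 and 1.08 for actin and 1.82 and 2.00 against 1.64 and 1.85 for GAPDH. Hybridization controls of 1 set averaged 10.01 and 10.06 against 9.2 and 9.74 on the log2 scale. Those of another set averaged 9.55 and 9.57 against 8.52 and 9.24. The part of RNA quality or of hybridization in the results was not tested.

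The arrays hold RNA of all tissues, so that more cells of a type and more RNA per cell cannot be told apart. Beside the marker counts below, 11.3% of all tested probe sets were called higher and 13.3% lower. Fat body markers were bright in both genotypes, with 4 of 7 listed genes measured and summed signals of 132734 to 135658 in GFP and 88849 to 105332 in Gyc76C larvae; Fbp1 and Fbp2 fell and 0 rose, while with arrays centred Fbp1 fell and apolpp rose. Plasmatocyte markers summed to 4605 to 5167 and 3437 to 3599, with 3 of 6 falling (2 with arrays centred). The other 3 were not called, with log2 fold changes of 0.02 for Hml, -0.05 for Pxn and 0.38 for NimC1. The 2 tested crystal cell markers rose (1 after quantile normalization), the 3 measured ones summing to 8038 to 11130 and 14766 to 15543. The remaining one, lz, was too dim to be tested. It went the other way, with 64.7 and 49.2 on the GFP arrays and 25.1 and 39.9 on the Gyc76C arrays. Of the 2 lamellocyte markers, atilla was not called and PPO3, which defines these cells, was at 3.39 to 14.1 on the 4 arrays, under the filter level. The midgut also makes antimicrobial peptides, and 2 of its 5 tested markers, betaTry and epsilonTry, rose. The sums were 55181 to 65360 in GFP and 65823 to 75156 in Gyc76C larvae. No call was made for the other 3, with log2 fold changes of 0.16 for alphaTry, -0.28 for Jon65Aiii and -0.03 for Jon99Ci. All 6 salivary gland markers fell, from sums of 179054 to 192434 to sums of 18153 to 21244. These 6 are all glue (Sgs) genes, and no other gene of the gland was listed. A difference between the genotypes in age within the 3rd instar was not tested. The part of these groups in the rise of DptB and AttD was not tested.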

How the data were processed

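Whole larvae of 2 genotypes were profiled on 4 one-colour Affymetrix arrays, 2 per genotype, with groups taken from the titles. The authors deposited 1 linear intensity per probe set and array. Per the submitters' processing notes these are MAS5 signals, with no version given. The mean trimmed by 2% at each end was 500.02 on every array, so a common scaling had been applied. Per the labels' protocols RNA was taken with Trizol and the RNeasy kit. The number of arrays limits the precision.

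The 183 control probe sets were left out of 18952. Signals were log2-transformed with no pseudocount. Probe sets with a mean signal at or above the 40th percentile (46.3) were tested, 11261 in all. limma 3.58.1 (R 4.3.3) was run (lmFit, then eBayes with the prior variance following mean signal; 2 residual and 4.64 prior degrees of freedom), with two-sided p-values adjusted by Benjamini-Hochberg over all probe sets tested. The fit was tested on simulated data with few changed probe sets and with spreads shuffled over probe sets. It therefore did not examine the variance trend or a share of calls as large as here. Symbols come from GEO's platform annotation: 13646 probe sets had 1 symbol, 402 several and 4721 none. A gene is represented by its brightest probe set with 1 symbol. Hybridization by paralogous transcripts was not tested, since probe sequences were not used here.

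The members and lists were chosen with earlier results of these data known. The text names the members, the overexpressed gene, up to 4 called genes of each list with the largest change (or up to 2 where none was called) and the 3 genes with the profile nearest to each member; others are said to be named after their values were seen. Marker genes are named as members of their lists. Alternatives were another scaling, filter, pseudocount, floor or variance model, the replicate number as a block, and leaving out each array.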

Additional observations from a re-analysis of the deposited data

How the results depend on the processing

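The direction and the call of DptB and AttD were kept under all 13 alternatives, and Def kept its direction and stayed uncalled under the 12 in which it was tested. Leaving out each array in turn gave log2 fold changes of 4.48 to 5.82 for DptB, 2.18 to 3.07 for AttD and 0.14 to 1.69 for Def. The number of probe sets called, 2771, was 1241 with no variance trend and ran from 1204 (without Gyc76C replicate 1) to 3350 (without GFP replicate 1) with an array left out. Calls among the intracellular Imd components, 2 as reported, were 1 with centred arrays, 1 without a filter, 1 without the variance trend, 3 with quantile normalization and 1 to 4 with an array left out. Calls among the recognition protein genes and pirk, 2 as reported, were 2 to 5 with an array left out. With an array left out CecB ran from -0.47 (Gyc76C replicate 2) to 0.68 (Gyc76C replicate 1) and snsl from -0.14 (GFP replicate 1) to 1.64 (GFP replicate 2); neither was called in any of these. Apart from the array left out, the cause of these changes was not tested. With the replicate number as a block 3101 probe sets were called, and the members had 5.15 (DptB, limma adjusted p = 1.29e-06), 2.63 (AttD, 0.000284) and 0.91 (Def, 0.211), with no call changed. The labels do not say that a number marks a shared batch. The replicate differences of both genotypes correlated at r = 0.04 over the tested probe sets, and a source shared by same-numbered arrays was not tested further. Low signal limits Def most, since 1 of its arrays was under the filter level, and the 60th percentile filter (169) left it untested.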

Other observations

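PGRP-SB2, a further recognition protein gene, separated the arrays by replicate number rather than by genotype. Its signals were 40.3 on GFP replicate 1, 1595 on GFP replicate 2, 69.2 on Gyc76C replicate 1 and 996 on Gyc76C replicate 2. The log2 fold change between genotypes was 0.05 with an SE of 1.81 (limma adjusted p = 0.988). DptB, AttD and Def were also higher on the replicate 2 array of each genotype, by much smaller factors, and whether these differences share a source was not tested. PGRP-SB2 was singled out after its values were seen.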
